A study of Mus musculus with 2 samples.

Results

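Motile cilia genes were taken as the protein-coding genes on autosomes in the GENCODE M21 annotation whose symbol starts with Dnah, Dnaic, Dnaaf, Rsph, Cfap or Drc followed by a number, together with Foxj1, Dnali1, Dnal1, Hydin, Mcidas and Tekt1 to Tekt5. The rule read gene names and no measured value, and it gave 73 of 20807 genes. Accessible DNA had been mapped by DNase-seq, in which DNase I cuts DNA that is not wrapped in nucleosomes, in frontal cortex taken from males at the age of 14 days. These mice were of the F1 hybrid B6CASTF1/J, and the labels name no mutation and no treatment. The only group held 2 libraries, replicate 1 and replicate 2, each described as tissue from 3 males, so nothing could be compared between conditions and no p-value was computed. The labels give the libraries different tissue samples but a single donor number, so that the spread between them may be technical. All positions are in mouse assembly mm10.

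The authors called 75753 peaks in replicate 1 and 77035 in replicate 2, and 156390 and 202779 footprints, which are short gaps in the cuts that are read as bases under a bound protein. Sequencing depth is unknown here. A promoter was the DNA within 1000 bp of any annotated start site of a gene, and its height was that of the tallest peak there, as the authors' signal on a scale set per library. Both libraries showed a promoter peak in 11 of 12 marker genes of cortical neurons (91.7%), against 60.8% of all autosomal protein-coding genes. The remaining one, Slc17a7, had a peak in replicate 2 alone. Median heights of the 11 were 2.05 and 1.72, against 3.09 and 3.03 in all genes with a peak in both libraries. All 29 listed genes of the primary cilium had a peak in both too, so such a count cannot identify the tissue. The tissue was not sorted, so fewer cells with an open promoter and less accessible DNA per cell cannot be told apart.

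Motile cilia are beating hairs built on a ring of doublet microtubules. Dynein arms on the doublets pull neighbouring doublets past each other, and radial spokes, the nexin link and the central apparatus control that sliding. In the brain they are carried by ependymal cells that line the ventricles, and the same parts build the sperm tail, whereas neurons and astrocytes carry a primary cilium that does not beat. Foxj1 is a forkhead transcription factor that switches on motile cilia genes, and RFX factors bind the X-box, a pair of inverted arms found at promoters of many cilia genes.

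The sequences below are shown because the arm of the X-box, the letters GTTGCC, was held by more of these promoters than of all promoters in the counts given further down. They are the mm10 reference at arms that lay inside the promoter peak of both libraries, 5′ to 3′ on the strand where the arm reads GTTGCC. Capitals mark that arm, the arm of the other strand (GGCAAC), and the shortened pair of arms GTTGC and GCAAC. A stretch that overlaps an exon is limited to 30 bases.
Cfap97d1: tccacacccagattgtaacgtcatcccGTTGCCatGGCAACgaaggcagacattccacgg
Cfap54: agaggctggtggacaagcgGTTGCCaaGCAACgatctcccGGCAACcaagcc
Cfap44: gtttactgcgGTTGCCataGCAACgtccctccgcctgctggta
Rsph3b: gcgcccccatcgGTTGCCgaGCAACccgag
Rsph3a: gcgcccccatcgGTTGCCgaGCAACccgag
Cfap298: gcggaagtggctGTTGCCaggGGCAACagt
Dnaic2: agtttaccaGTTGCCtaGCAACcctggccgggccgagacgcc
Hydin: ttgttaccatctGTTGCCacaGCAACcgca
Tekt1: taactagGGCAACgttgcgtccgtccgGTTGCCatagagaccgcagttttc
Cfap65: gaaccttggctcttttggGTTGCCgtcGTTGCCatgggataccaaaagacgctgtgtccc
Dnaaf2: agcgcgtgctttGTTGCCatagtaacgcct

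These stretches lie at chr11:101984193-101984252 on the plus strand for Cfap97d1, chr10:93081619-93081670 on the plus strand for Cfap54 and chr16:44394753-44394795 on the minus strand for Cfap44. Those of the Rsph3 copies lie at chr17:6948323-6948352 on the plus strand for Rsph3b and chr17:7945983-7946012 on the minus strand for Rsph3a. That of Cfap298 lies at chr16:90934892-90934921 on the plus strand, that of Dnaic2 at chr11:114727366-114727407 on the minus strand and that of Hydin at chr8:110266952-110266981 on the minus strand. That of Tekt1 lies at chr11:72361874-72361924 on the minus strand, that of Cfap65 at chr1:74935604-74935663 on the minus strand and that of Dnaaf2 at chr12:69198421-69198450 on the plus strand. The stretches of Rsph3b, Rsph3a, Cfap298, Hydin and Dnaaf2 overlap an annotated exon, and the others lie outside exons.

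The parts of the peaks outside exons are shown for 3 tall promoters that differ in these letters, on the strand of the gene. In Foxj1 (chr11:116335400-116335540, minus strand) the capitals mark a single arm. In Dnah6 (chr6:73221652-73221860, minus strand) they mark the shortened pair GTTGC and GCAAC. In Rsph1 (chr17:31277384-31277500, minus strand), whose peak holds no arm, they mark the GC box GGGCGG, to which Sp and Klf factors bind, on both strands.
Foxj1: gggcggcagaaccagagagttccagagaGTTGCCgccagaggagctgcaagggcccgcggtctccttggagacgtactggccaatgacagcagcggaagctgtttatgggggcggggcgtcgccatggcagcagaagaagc
Dnah6: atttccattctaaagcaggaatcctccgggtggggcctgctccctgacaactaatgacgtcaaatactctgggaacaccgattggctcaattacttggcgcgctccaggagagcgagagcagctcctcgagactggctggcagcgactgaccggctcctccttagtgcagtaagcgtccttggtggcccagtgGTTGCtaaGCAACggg
Rsph1: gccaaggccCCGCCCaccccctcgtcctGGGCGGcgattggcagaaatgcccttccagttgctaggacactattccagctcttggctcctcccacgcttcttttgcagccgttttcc

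Most motile cilia promoters carried a DNase-seq peak in this cortical tissue. Of the 73 genes, 55 (75.3%) had such a peak in both libraries, against 60.8% of all autosomal protein-coding genes. A further 4 (5.48%) had one in a single library, against 4.15% of all genes, and 14 (19.2%) had none, against 35% of all genes. A peak that covered an annotated start site of the gene itself was present in both libraries in 46 genes (63%), against 46.6% of all genes. By role, 7 of 8 radial spoke genes and 27 of 31 Cfap genes had a peak in both libraries, against 6 of 10 inner arm and 2 of 5 outer arm dynein heavy chains and 2 of 5 tektins.

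**Figure D1:**
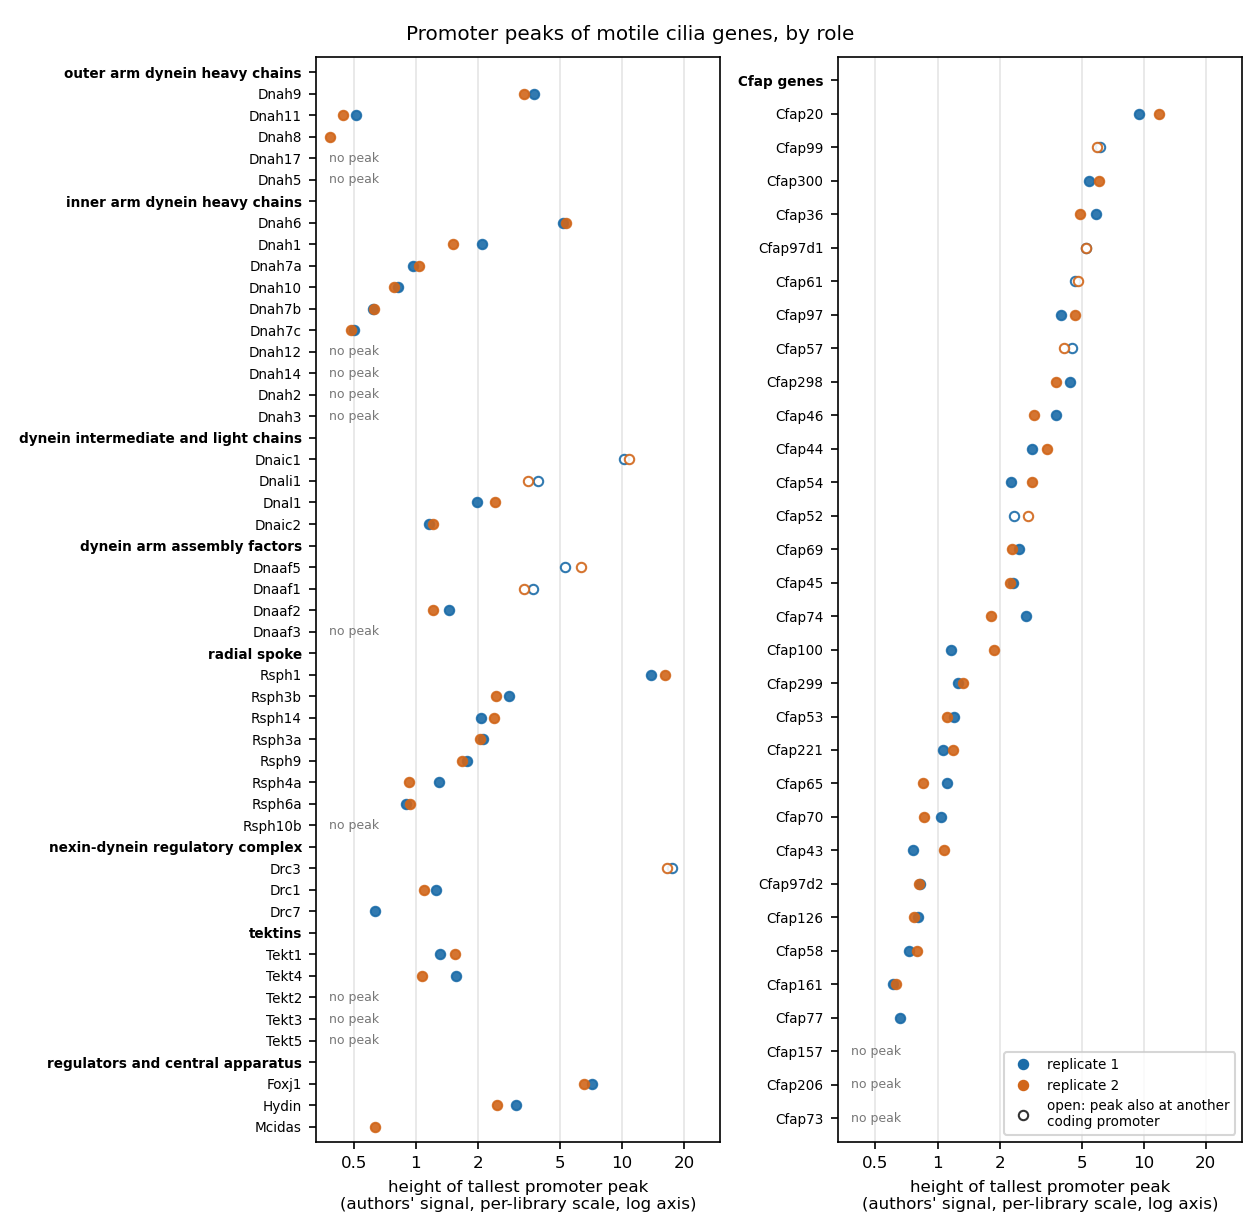
Height of the tallest promoter peak of each motile cilia gene (horizontal log axis, the authors' signal on a per-library scale) in replicate 1 (blue) and replicate 2 (orange), grouped by role, with open circles where the peak also lies at the promoter of another coding gene. Drc3, Rsph1, Cfap20 and Dnaic1 stand at the top, 14 genes have no peak, and the points of the 2 libraries lie close together for most genes.

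Among the regulators, Foxj1 had a tall promoter peak and Mcidas a very low one. The Foxj1 peak had a height of 7.13 in replicate 1 and 6.56 in replicate 2 (6.85 ± 0.400, SD, n = 2), covered its only annotated start site and lay at no other coding promoter. Among all autosomal coding genes with a promoter peak in the same library, these heights were at percentiles 84.0 and 82.0. Mcidas, which acts upstream of Foxj1 in the choice of the multiciliated cell fate, had a peak in replicate 2 alone, 54 bp wide with a height of 0.634 and 573 bp from its start site. No base of its promoter was listed in the cut rate track of replicate 1. Hydin, a giant protein of the central apparatus, had heights of 3.08 and 2.47 (2.77 ± 0.433, SD, n = 2), near the median of all genes.

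Of the 5 outer arm dynein heavy chains, the motors that set the beat frequency, Dnah9 and Dnah11 had a peak in both libraries. Dnah9 had heights of 3.76 and 3.36 (3.56 ± 0.283, SD, n = 2). Dnah11 had the lowest mean of the motile cilia genes with a peak in both libraries, at 0.514 and 0.442 (0.478 ± 0.0505, SD, n = 2). Dnah8, whose product is known from the sperm tail, had a peak of 54 bp and height 0.384 in replicate 2 alone, and no base of its promoter was listed in the cut rate track of replicate 1. Dnah5, known from the outer arms of respiratory and ependymal cilia, and Dnah17, a sperm tail motor, had none.

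Of the 10 inner arm heavy chains, which shape the bend of the cilium, Dnah6 stood above the others. Its heights were 5.16 and 5.34 (5.25 ± 0.127, SD, n = 2), at percentiles 72.1 and 74.5 of all genes, and its peak was 220 bp wide in both libraries with the same borders. Dnah1 followed at 2.10 and 1.52 (1.81 ± 0.413, SD, n = 2), from a peak that lay 651 and 531 bp from the nearest Dnah1 start site, and its mean was 1.06 with a window of 500 bp. Dnah10 had 0.824 and 0.784 (0.804 ± 0.0283, SD, n = 2). The copies Dnah7a, Dnah7b and Dnah7c on chromosome 1 had 0.967 and 1.03, 0.621 and 0.626, and 0.502 and 0.484, so that the order of the copies was the same in each library. How reads that fit more than 1 copy were assigned is unknown here, so the values of these copies are uncertain. Dnah2, Dnah3, Dnah12 and Dnah14 had no promoter peak.

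All 4 genes of the intermediate and light chains, which are smaller parts of the dynein arms, had a peak in both libraries. Dnaic1 had heights of 10.2 and 10.8 (10.5 ± 0.401, SD, n = 2), but its start site shares the peak with Fam219a. Dnaic2 had 1.16 and 1.21 (1.18 ± 0.036, SD, n = 2) from a peak of its own, and both values lay below the height of Dnaic1 by more than the gap between the libraries. Dnal1, an outer arm light chain, had 1.98 and 2.44 (2.21 ± 0.320, SD, n = 2). Dnali1, an inner arm light intermediate chain, had 3.92 and 3.49 (3.70 ± 0.305, SD, n = 2) from a peak 818 bp from its start site. In both libraries that peak covers a start site of another coding gene. With a window of 500 bp, Dnali1 had no promoter peak.

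The assembly factors, which fold and join dynein arms in the cytoplasm, had a peak in both libraries in 3 of 4 genes, and no gene of the annotation had the symbol Dnaaf4. Dnaaf5 had 5.30 and 6.35 (5.82 ± 0.739, SD, n = 2) and Dnaaf1 3.69 and 3.35 (3.52 ± 0.238, SD, n = 2), both from a peak that also covers the start site of another gene. Dnaaf2 had 1.46 and 1.21 (1.33 ± 0.175, SD, n = 2) and Dnaaf3 had no peak.

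Rsph1, a protein of the radial spoke head, had the tallest promoter peak that was not shared with another coding gene. Its heights were 13.9 and 16.2 (15.0 ± 1.67, SD, n = 2), at percentiles 98.3 and 99.2 of all genes, from a peak of 260 bp with the same borders in both libraries. The other spoke genes with a peak were far lower, and each of their values lay below those of Rsph1. Rsph3b, a protein of the spoke stalk, had 2.83 and 2.45, and its copy Rsph3a had 2.13 and 2.06. Rsph14 had 2.08 and 2.40. Rsph9 and Rsph4a, the partners of Rsph1 in the spoke head, had 1.78 and 1.68, and 1.30 and 0.926. Rsph6a, the form of the spoke head known from sperm, had 0.896 and 0.942, from peaks of 52 and 81 bp that lay 282 bp from its nearest start site. Rsph10b had no peak.

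In the nexin-dynein regulatory complex, the link between doublets, Drc3 had the tallest value of all 73 genes, 17.5 and 16.6 (17.1 ± 0.658, SD, n = 2). Its peak did not cover a Drc3 start site in either library and is shared with Tom1l2. Drc1, the scaffold of the link, had 1.25 and 1.10 (1.18 ± 0.108, SD, n = 2). Drc7 had a peak in replicate 1 alone, with a height of 0.633. In replicate 2, 21 bases of the Drc7 promoter were listed in the cut rate track, with a smallest false discovery rate of 0.0432, just under the limit of 0.05 for listing.

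Of the tektins, filament proteins inside the doublets, Tekt1 and Tekt4 had a peak in both libraries and Tekt2, Tekt3 and Tekt5 had none. Tekt1 had 1.31 and 1.55 (1.43 ± 0.168, SD, n = 2). Tekt4 had 1.58 and 1.07, but its tallest peaks in the 2 libraries lay at different start sites and did not overlap.

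Cfap genes are named for an association with cilia and flagella and do not form 1 complex. The tallest with a peak of its own was Cfap20, a protein of the junction between the tubules of a doublet, at 9.47 and 11.8 (10.7 ± 1.68, SD, n = 2). Cfap300, a factor for dynein arm assembly, had 5.41 and 6.06, and Cfap36 had 5.86 and 4.94. Cfap99, Cfap97d1 and Cfap61 had 6.17 and 5.95, 5.23 and 5.25, and 4.62 and 4.80, in each case from a peak that lies at another coding promoter too. At the low end, Cfap161, a protein inside the doublets, had 0.609 and 0.626, Cfap58 had 0.728 and 0.792, and Cfap126, which helps to place basal bodies, had 0.800 and 0.767. Cfap77 had a peak in replicate 1 alone, with a height of 0.657, and no base of its promoter was listed in the cut rate track of replicate 2. Cfap73, Cfap157 and Cfap206 had no peak.

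The remaining Cfap genes with a peak in both libraries filled the range between these ends. Cfap97, Cfap57, Cfap298 and Cfap46 had means from 3.34 (Cfap46) to 4.30 (Cfap97). The mean of Cfap46 was 1.24 with a window of 500 bp, as its peak lay 864 and 924 bp from its nearest start site, and that of Cfap97 was 2.15 at the outermost start site alone. Those of Cfap44, Cfap52, Cfap54, Cfap69, Cfap45 and Cfap74 ran from 2.24 (Cfap74) to 3.14 (Cfap44), and among them Cfap54 and Cfap74 are proteins of the central apparatus. Cfap100, Cfap299, Cfap53 and Cfap221 had means from 1.13 (Cfap221) to 1.52 (Cfap100). Cfap65, Cfap70, Cfap43 and Cfap97d2 lay below 1, from 0.821 (Cfap97d2) to 0.981 (Cfap65). Cfap43 and Cfap44, which are known as a pair from the sperm tail, thus differed. Heights were 0.764 and 1.08 in Cfap43 and 2.88 and 3.39 in Cfap44. The Cfap43 peak did not lie at its outermost start site, and it covered a start site of the gene in replicate 2 alone. At the outermost start site alone, the means were 0.874 in Cfap43 and 3.14 in Cfap44.

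Motile cilia promoters were not GC-rich, and the difference from other genes in having a peak lay in the promoters of low GC content. Their median GC content, over the promoter of 1000 bp on both sides of the start site, was 49.3%, against 51.4% in all genes. When all genes were split into 3 classes of promoter GC, at 48.2% and 54.5%, 16 of the 22 motile cilia genes of the lowest class (72.7%) had a peak in both libraries, against 29.4% of all genes of that class. In the middle class it was 28 of 38 (73.7%), against 70.8%, and in the highest 11 of 13 (84.6%), against 82.5%. The 16 genes of the lowest class with a peak include Hydin, Dnal1, Dnah7b, Rsph4a, Rsph14, Tekt1, Cfap44, Cfap54 and Cfap65. The motile cilia genes had a median of 4 annotated start sites against 3 in all genes. With the outermost start site of each gene alone, 53 of 73 had a peak in both libraries, against 55.9% of all genes.

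**Figure D2:**
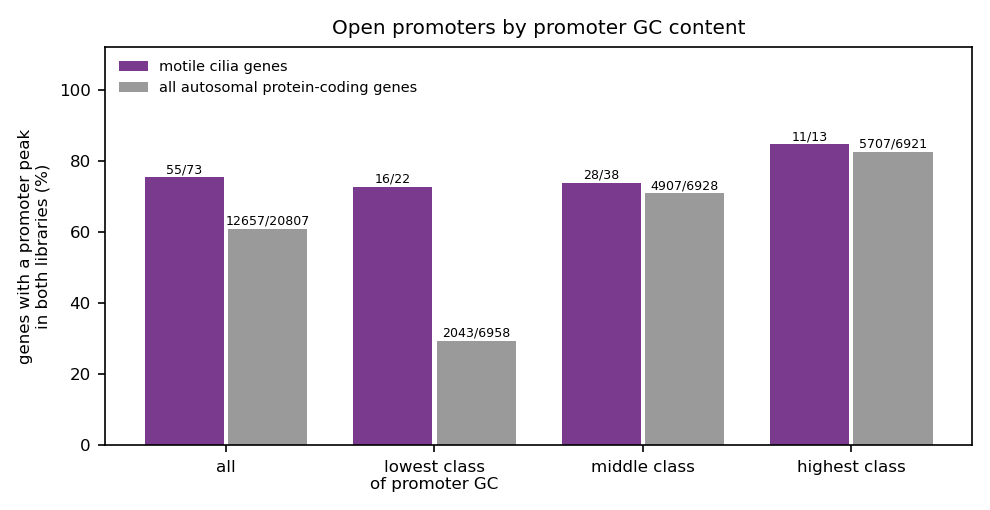
Share of genes whose promoter holds a peak in both libraries (vertical axis, %) for motile cilia genes (purple) and all autosomal protein-coding genes (grey), over all genes and within 3 classes of promoter GC content, with the counts above the bars. In the lowest class the share is 72.7% against 29.4%, and in the other classes the bars differ by less than 3 percentage points.

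Although more of these promoters had a peak, the peaks were lower than those of other genes. Over the 55 genes with a peak in both libraries, heights ran from 0.502 to 17.5 in replicate 1, with a median of 2.13, and from 0.442 to 16.6 in replicate 2, with a median of 2.24. The medians over all such genes were 3.09 and 3.03, and 19 of the 55 motile cilia genes lay above them in each library. The gap was wider where the peak lay at no other coding promoter. For these 45 genes the medians were 1.58 and 1.55, against 2.72 and 2.65 in all such genes. The 10 genes that shared their peak had medians of 4.93 and 5.03, against 4.75 and 4.67 in all genes with a shared peak.

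**Figure D3:**
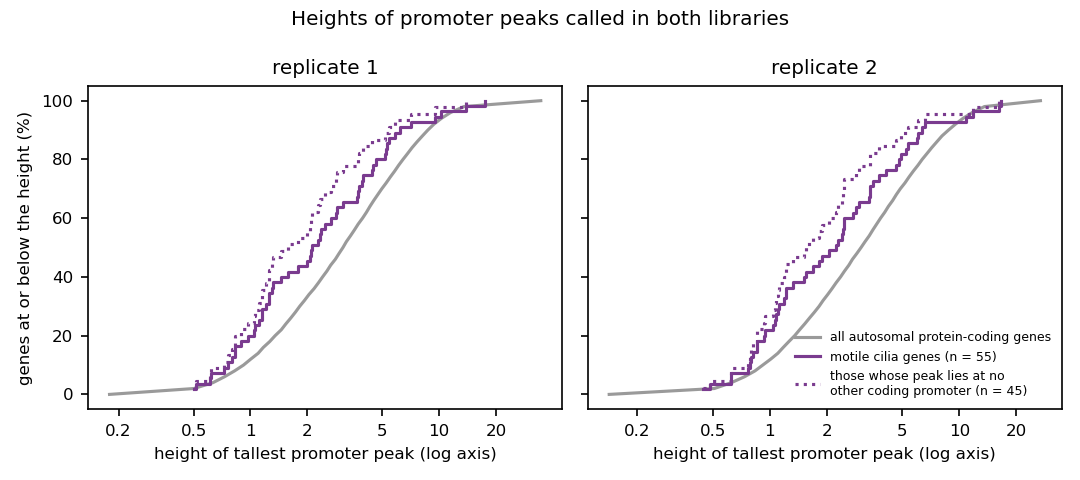
Cumulative share of genes (vertical axis, %) by height of the tallest promoter peak (log axis) in each library, for all autosomal protein-coding genes with a peak in both (grey, at every second percentile), motile cilia genes (solid purple, n = 55) and those whose peak lies at no other coding promoter (dotted purple, n = 45). The purple curves lie to the left of the grey one over most of the range, with medians of 2.13 and 2.24 for all 55 genes against 3.09 and 3.03.

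The libraries gave similar heights for most of these genes. The log2 ratio of replicate 2 to replicate 1 had a median of -0.05 over the 55 genes, against -0.01 over all genes, and ran from -0.56 in Cfap74 to 0.70 in Cfap100. In 51 of the 55 genes the tallest peaks of the libraries overlapped. The exceptions were Cfap52, Cfap74, Cfap100 and Tekt4, which include both ends of that range, so that their ratios compare different peaks.

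A peak that lies at 2 coding promoters cannot be assigned to either gene, and this held for 10 of the 55 genes (18.2%) in both libraries, against 20.6% of all genes. Among them are Drc3, Dnaic1, Cfap99 and Dnaaf5, 4 of the 7 tallest. In 9 of the 10 pairs the genes ran away from each other on opposite strands. Cfap57 and Ebna1bp2, which acts in ribosome assembly, had start sites 22 bp apart, Dnaaf1 and Hsdl1 52 bp, and Cfap61 and the splicing factor gene Crnkl1 70 bp. Cfap99 and Zfyve28 were 151 bp apart, Dnaaf5 and Prkar1b, a regulatory subunit of protein kinase A, 222 bp, and Dnaic1 and Fam219a 237 bp. In 5 pairs, those of Cfap57, Cfap61, Cfap99, Dnaaf1 and Dnaaf5, the peak covered a start site of both genes in both libraries.

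In the pair of Dnaic1 and Fam219a the peak covered a start site of both genes in replicate 2 and of Dnaic1 alone in replicate 1. The Drc3 peak lay 169 and 269 bp from the nearest Drc3 start site, and 136 bp from a start site of Tom1l2 in replicate 1, while it covered one in replicate 2. Cfap97d1 differed from the other pairs, because its start site and that of the phosphatase gene Dusp3 face each other 472 bp apart, and the peak covered the start site of Cfap97d1 but lay 411 and 391 bp from that of Dusp3. In Cfap52 the tallest peak covered its own start site in replicate 1 and that of Stx8, a gene of vesicle fusion, in replicate 2. Dnaaf2 shared its peak with the coding model Gm49383 in replicate 2 alone, where the peak was 500 bp wide against 180 bp in replicate 1. Counting genes of every type as neighbours, 17 of the 55 genes (30.9%) shared their peak, against 33% of all genes.

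Footprints were found in nearly all of these peaks, and over the 55 genes together their density was close to that of other promoters. In 51 of the 55 genes (92.7%) the tallest peak held a footprint in both libraries, against 94.9% of all genes. The median number per peak was 3 in replicate 1 and 4 in replicate 2, against 4 and 5 in all genes, and the peaks were slightly narrower, with median widths of 220 and 240 bp against 240 and 260 bp. Per kb of peak, the motile cilia genes had 14.9 and 17.4 footprints and all genes 16.2 and 17.5. Where no other coding gene shared the peak, the values were 13.5 and 15.6, against 15.7 and 17.0 in all such genes. In shared peaks they were 20.7 and 26.25, against 18.3 and 19.4. The count moved with height. In replicate 1 the 25 motile cilia genes in the lowest of 3 classes of height, below 2.01, had a median of 2 footprints. The 12 in the highest, above 4.56, had a median of 6. Over all genes the count moved likewise, with medians of 2 and 5 in these classes. The genes without a footprint in one of the libraries were Cfap43, Cfap97d2, Dnaic2 and Rsph6a, in each case in replicate 1. Footprints were most numerous in the peaks of Dnaaf5 (9 and 10), Cfap20 (7 and 7), Dnaic1 (6 and 9), Cfap99 (6 and 8) and Cfap36 (4 and 10).

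The letters of the X-box arm were more common in motile cilia promoters than in other promoters. Of the 55 genes, 25 (45.5%) held GTTGCC on either strand in the tallest peak of replicate 1, against 13.3% of all genes, and 26 (47.3%) in that of replicate 2, against 14.2%. In both libraries it was 23 genes (41.8%), against 11.9%. Among genes whose peak lay at no other coding promoter it was 20 of 45 (44.4%), against 11.5%. Within 1000 bp of the outermost start site, with or without a peak, 54 of 73 genes (74%) held the arm, against 51.4%, and within 200 bp 30 (41.1%), against 15.6%. The share of peaks holding it was above that of all genes in each of the 3 height classes of each library, from 30.8% against 14.5% in the highest class of replicate 2 to 56.2% against 14.3% in its middle class.

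The same 6 letters were also counted in 3 other orders, chosen after the data were seen. CCGTTG was held by 6 motile cilia peaks in replicate 1 (10.9%) and 8 in replicate 2 (14.5%), against 7.04% and 7.58% of all peaks. CTGTGC was held by 9 and 11 (16.4% and 20%), against 19% and 20.5%, and TGGTCC by 7 and 7 (12.7% in each), against 14.5% and 15.4%. The share of motile cilia peaks was thus above that of all peaks for CCGTTG and below it for the other orders. The part of base composition in the share of GTTGCC was not tested.

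**Figure D4:**
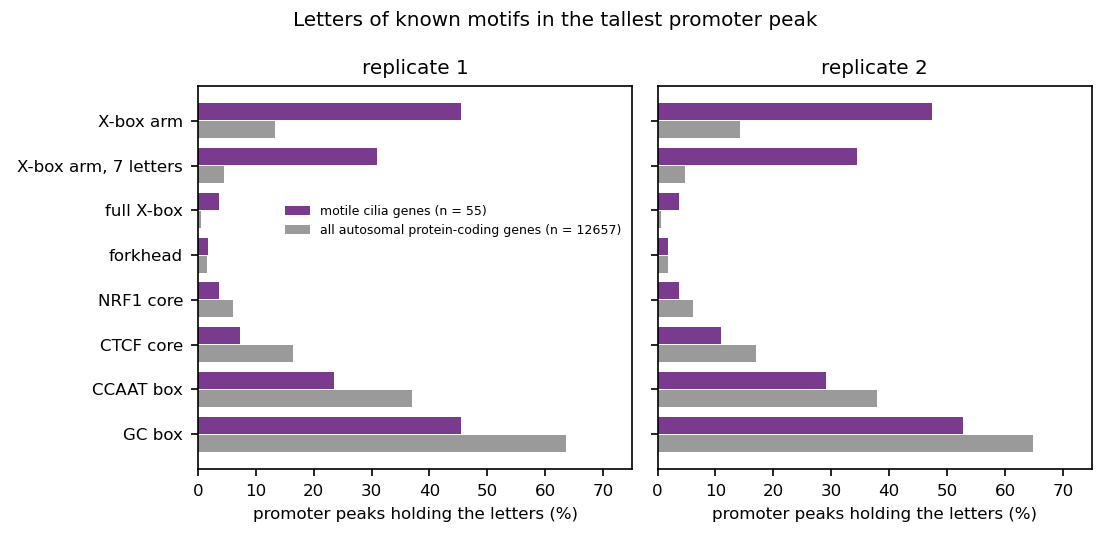
Share of promoter peaks that hold the letters of each motif on either strand (horizontal axis, %) in each library, for 55 motile cilia genes (purple) and 12657 genes (grey) with a peak in both libraries. The X-box arm is held by 45.5% and 47.3% of the motile cilia peaks against 13.3% and 14.2%, while the GC box, CCAAT box and CTCF core are held by fewer of them than of all peaks.

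Other motifs did not show that difference. The forkhead letters TGTTTAC, which Foxj1 and its relatives bind, were held by 1 motile cilia peak in each library (1.82%), against 1.67% and 1.81% of all peaks, and within 1000 bp of the start site by 23.3% of the genes against 20.7%. The GC box GGGCGG was held by 45.5% and 52.7%, against 63.5% and 64.9%. The CCAAT box CCAAT, which NF-Y binds, was held by 23.6% and 29.1%, against 36.9% and 37.9%. The CTCF core AGGGGGC was held by 4 and 6 peaks (7.27% and 10.9%), against 16.4% and 17%. The NRF1 core GCGCATGC was held by 2 peaks (3.64%), against 6.15% and 6.18%. The E2F letters TTTCCCGC were held by 1 peak in each library (1.82%), against 1.91% and 2.23%, and TTTGGCGC by none, against 1.07% and 1.13%. The arm GTTGCC overlaps the longer form GTTGCCA, which was held by 30.9% and 34.5% of the motile cilia peaks, against 4.57% and 4.82%.

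The arms counted here lay close to the start sites. They were taken only from the tallest promoter peaks, most of which cover a start site, so this closeness follows in part from the choice. Positions and strands were not counted over all genes. The 23 genes held 33 arms in the peaks of both libraries, at a median of 15.5 bp upstream of the nearest start site of the gene, written as -15.5. Upstream lay 23 of them and downstream 10, and 31 were within 100 bp. The farthest upstream was that of Cfap44 at -123.5 bp, and the farthest downstream one of Cfap298 at 87.5 bp. They read GTTGCC on the strand opposite to the gene in 22 cases and on the strand of the gene in 11. In 7 genes the peaks held more than 1 arm, among them Cfap298 with 4, Cfap161 with 3, and Cfap97d1, Cfap54, Cfap44, Tekt1 and Cfap65 with 2 each.

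**Figure D5:**
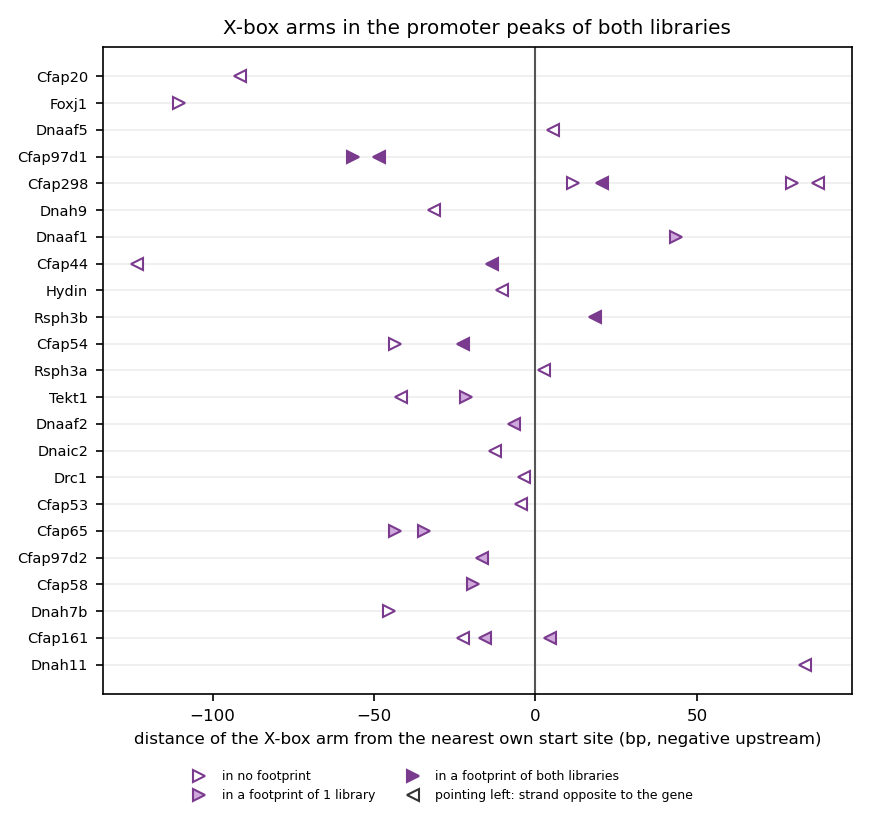
Distance of each X-box arm from the nearest start site of its gene (horizontal axis, bp, negative upstream), for the 33 arms inside the promoter peaks of both libraries in 23 genes, ordered by peak height with the tallest at the top. Fill gives footprints (white none, light purple in 1 library, dark purple in both), and triangles pointing left mark arms on the strand opposite to the gene. Of the 33 arms 31 lie within 100 bp of a start site, and 6 lie in footprints of both libraries.

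Arms in motile cilia peaks lay in footprints about as often as arms in the peaks of all genes. Of the 33 arms, 8 lay in a footprint of replicate 1, 13 in one of replicate 2 and 6 in footprints of both libraries. Those 6 belong to Cfap97d1 (both of its arms), Cfap54, Cfap44, Cfap298 and Rsph3b, and the sequences are among those shown above. Counting arms at different sites too, 7 of the 55 genes (12.7%) had an arm in a footprint of the peak in each library, against 3.03% of all genes, but they also held more arms. Per arm in a peak, 25.7% in replicate 1 and 35.1% in replicate 2 lay in a footprint, against 32.9% in each library over all genes. The arm of Foxj1, at -110.5 bp, lay in no footprint in either library. The arm of Hydin, at -10.5 bp, lay in none either, and that of Dnaaf2, at -6.5 bp, lay in one of replicate 2 alone.

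Rsph3a and Rsph3b show how the same letters can differ in these calls. Around their peaks the copies share 334 of 401 bases (83.3%), and the 30 bases around the arm shown above are the same in both. In Rsph3b the arm lay in a footprint in both libraries, and in Rsph3a it lay in none, although the peaks were of like height (2.83 and 2.45 against 2.13 and 2.06). Reads from the copies may be hard to tell apart here, and how they were assigned is unknown.

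When the sequences were read, several showed a shortened arm facing another across a few bases, GTTGC and GCAAC with 3 to 5 free bases between them. This form was therefore chosen after the sequences were seen, and its counts are a description only. It was found in the peaks of both libraries in 10 of the 55 genes (18.2%), against 0.703% of all genes (89 genes in all). These were Dnah6, Dnah7b, Dnaic2, Hydin, Rsph3a, Rsph3b, Cfap44, Cfap54, Cfap97d1 and Cfap298. Of the 10, the pair lay in footprints of both libraries in Dnah6, Rsph3b, Cfap44, Cfap54 and Cfap97d1, the last with its 4 free bases at a middle position of -52.5 bp. Dnah6, which holds no complete GTTGCC within 1000 bp of its outermost start site, had the pair centred 10 bp upstream of it. The full X-box was searched in 1 strict form alone (GTTGCC, 2 free bases, then GGNAAC). That form was rarer, in both peaks of Cfap97d1 and Cfap298 only (3.64%), against 0.577% of all genes. Pairs with another spacing or other letters were not counted as full, among them that of Cfap44, which lacks the first G of GGNAAC. The count therefore does not give the number of promoters with a complete X-box of any form.

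Paired arms were also present at promoters where they did not lie in the tallest peak of both libraries. Whether a lower peak covered them was not tested. Within 1000 bp of the outermost start site, 13 of 73 genes (17.8%) held the pair, against 0.971% of all genes, and within 200 bp it was 10 genes (13.7%), against 0.495%. Tekt2 held it 23 bp upstream of a start site and had no promoter peak in either library. In Dnah7a the pair lay 51 bp upstream of a start site but outside the tallest peak in both libraries, and in Dnah7c and Tekt4 it lay in the tallest peak of replicate 1 alone. Single arms within 200 bp of the outermost start site were present in 25 of the 55 genes with a peak in both libraries (45.5%), against 16.3% of all such genes. Of the 18 genes without one in both, 5 had such an arm (27.8%), against 14.5%.

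The 14 genes without a promoter peak were Dnah2, Dnah3, Dnah5, Dnah12, Dnah14, Dnah17, Dnaaf3, Rsph10b, Tekt2, Tekt3, Tekt5, Cfap73, Cfap157 and Cfap206, of which 6 are dynein heavy chains. The cut rate track, which lists runs of bases with a false discovery rate below 0.05, held some base of the promoter in 2 of them (14.3%), against 3.13% of all genes without a peak. These were Dnah2, with 1 listed base at a rate of 0.0453, and Dnah14, with 2 listed bases and a smallest rate of 0.0456, both in replicate 1 alone. In both libraries it was 0 of 14 genes (0%), against 0.329%. Accessible DNA below the authors' calling limit would not be seen here.

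Away from promoters, regions open in both libraries lay in or within 10 kb of 50 of the 73 genes (68.5%), against 47.4% of all genes. The median was 0.164 regions per 10 kb, against 0 in all genes. That gap depended on the setting, since with flanks of 50 kb the medians were 0.163 and 0.146, in replicate 1 alone 0.190 and 0.145, and in replicate 2 alone 0.198 and 0.142. The motile cilia genes are also longer, with a median length of 41648 bp against 17629 bp. The most regions, 12, lay at Dnah2, which had no promoter peak. Its tallest had heights of 4.66 and 6.48 and lay at chr11:69418021-69418280, outside the gene, as did 3 others with mean heights from 4.85 to 5.51. Inside genes, the tallest lay in Dnaic1 at chr4:41615701-41616020, with 3.00 and 3.15, and in Rsph10b, with 2.85 and 2.51, although the Rsph10b promoter had no peak. A region near a gene need not act on it.

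Other cilia genes, listed apart from the 73, were counted in the same way. For comparison, 60.8% of all autosomal protein-coding genes had a peak in both libraries, with median heights of 3.09 and 3.03. Of those, 11.9% held an X-box arm in both peaks and 0.703% the paired arms. Of 44 further motile cilia genes, 38 (86.4%) had a peak in both libraries, with median heights of 2.36 and 2.77, and 24 of the 38 (63.2%) held an X-box arm in both peaks. Their tallest were Rfx1, an RFX factor, at 16.6 and 20.1, Ccdc151, an outer arm docking protein, at 15.9 and 15.8, and Rfx2, an RFX factor of motile cilia genes, at 8.11 and 7.92. Dnajb13 and Tmem212 had no peak. Of 29 genes of the primary cilium and of intraflagellar transport, all had a peak in both libraries, with median heights of 4.75 and 5.20, and 10 (34.5%) held the arm. Their tallest were Ift27, Ift140 and Bbs2, with 13.1 and 12.5 in Ift27. The paired arms were found in both peaks of 3 of the 38 (7.89%; Rfx2, Ccdc103 and Dynlrb2) and 1 of the 29 (3.45%; Tctn1). These are counts on lists of different sizes with no test between them.

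Markers of choroid plexus and ependyma formed 1 list of 16 genes, many of which mark the choroid plexus. In both libraries 4 of them (25%) had a promoter peak, against 60.8% of all genes. These were Rabl2 at 2.42 and 2.15, Vwa3a at 0.979 and 1.25, Prlr at 0.872 and 0.751, and Ak7 at 0.705 and 0.651. Ak7 is also among the 44 further cilia genes. Ttr had a promoter peak in replicate 1 alone (0.621) and Hdc in replicate 2 alone (0.550). Folr1, Kcne2, Kl, Clic6, Otx2, Aqp1, Kcnj13, Sostdc1, Tmem72 and Rarres2 had none. The heights over the list summed to 5.60 in replicate 1 and 5.35 in replicate 2. Of 16 germ cell and sperm markers, Dazl alone (6.25%) had a promoter peak in both libraries, at 1.35 and 1.50, against 60.8% of all genes. Spaca1 and Crisp2 had one in a single library, and 13 had none, Ddx4, Prm1 and Tnp1 among them. The part of ependymal cells in the peaks of the motile cilia genes was not tested.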

How the data were processed

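DNase-seq of frontal cortex was used from 2 libraries of 1 group. Per the deposited file descriptions, the authors made peaks, footprints and a cut rate track for each library in assembly mm10, without pooling. Aligner and callers are not given in the sources used here. Per the deposited peak lists, heights are a signal on a per-library scale that was not stated, so they rank peaks within a library, and a mean of both combines 2 scales. The deposited cut rate track gives false discovery rates, handled as a p-value or q-value, of runs of bases, listed where below 0.05. The deposited footprints carry the constant 0.01 in a p-value column, taken to be a calling threshold. Depth of the libraries is unknown, and precision is given by the gap between libraries.

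The longer of 2 deposited peak lists per library was used, and the shorter as an alternative. Promoters reached 1000 bp on both sides of every GENCODE M21 start site, overlap meant at least 1 bp, and distal regions were shared peaks farther than 1000 bp from all protein-coding start sites, counted over the gene and 10 kb on both sides. Promoter GC content and motifs (both strands) were read from the RefSeq copy of the mm10 genome, and a motif lay in a footprint when its middle base did. Peaks of an F1 hybrid were called against 1 reference, and the effect of strain variants was not tested. Scripts used Python 3.11, NumPy 2.4.6, Biopython 1.88 and matplotlib 3.10.9, and were tested on simulated peaks at annotated genes and on simulated sequences. Alternatives were other windows (500 and 2000 bp), start sites, peak lists, single libraries, neighbour types, footprint overlap, flanks (50 kb) and motif forms. Members, lists and motifs were chosen with earlier results of these data known. Values are given for the 12 tallest and 6 lowest members, those with a peak in 1 library, and all members outside the Cfap genes, with the other Cfap genes in ranges. The neighbour of 1 member is not reported here.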

Additional observations from a re-analysis of the deposited data

How the results depend on the processing

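The number of motile cilia genes open at the promoter in both libraries (55) ranged from 46, where a peak had to cover a start site of the gene, to 58 with a window of 2000 bp, and was 47 with the shorter peak list. The counts with footprints (51 of 55) ranged from 46 of 47 with the shorter list to 56 of 57 in replicate 2 alone, and were 52 of 57 in replicate 1 alone. The number of genes with a peak thus changed with the setting too. Counts of shared peaks (10) ranged from 9 to 12, except with neighbours of every gene type (17). The mean of the median heights of the 2 libraries (2.18) was 1.56 at peaks of no other coding promoter and 2.46 with the shorter list. It was 2.29 with start sites of protein-coding transcripts and 1.95 with a window of 500 bp, and single libraries had medians of 2.06 to 2.10. These values stayed below those of all genes wherever both were computed. The median distal density (0.164) was 0 with the shorter list, 0.163 with flanks of 50 kb (0.146 in all genes) and 0.190 to 0.198 in single libraries (0.142 to 0.145 in all genes). Against 54 genes with an X-box arm within 1000 bp, 30 held one within 200 bp and 23 in the peaks of both libraries. The paired arms were held by 13 genes and the strict form of the full X-box by 2. The other letter orders gave 6 and 8, 9 and 11, and 7 and 7. The paired arms, the 200 bp limit, the letter orders, the covered start site and the split by shared peaks were chosen after seeing the data. Dnah1 and Tekt4 had no peak in both libraries at the outermost start site alone. Of single heights, 157 stayed within the spread between libraries and 5 did not: Cfap46 (1.24), Cfap52 (2.11) and Dnah1 (1.06) at 500 bp, Rsph6a (1.35) at 2000 bp and Cfap97 (2.15) at the outermost start site. The cause was not tested. No paired analysis was possible because there was 1 group. Unknown read depth and 2 libraries limit what low peaks and missing peaks show.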
